A study of Mus musculus with 18 samples.

Results

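The change in gene expression between leukocytes that stayed in an inflamed tissue and leukocytes that left it for the draining lymph node (LN) was compared between joint and skin. The comparison used 12 of the 18 RNA-Seq libraries of the series, 3 in each of 4 groups. For every gene, the log2 fold change of migrated over nonmigrated cells in the skin was subtracted from the same change in the joint. This difference of the migration changes is called the difference here, and it is positive where the change in the joint was the more positive one. Of 49585 genes in the count table, 16777 passed the filter on low counts and were tested, and immunoglobulin genes (190 tested of 429) are described apart from the other 16587.

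All mice were Kaede mice aged 6 to 10 weeks, which carry a green protein that violet light turns red for good. Each received an intravenous transfer of OT-II CD45.1 Th1 cells, polarized in culture, and was then immunized with ovalbumin in complete Freund's adjuvant. After 10 days, 100 µg of heat-aggregated ovalbumin (HAO) was injected into the footpad for the joint groups or into the ear pinna for the skin groups. The tissue was photoconverted on day 3 after this challenge, and 24 hours later viable CD45+ Kaede red+ cells were sorted from pooled samples. Joint nonmigrated and skin nonmigrated cells came from the challenged tissue, and joint migrated and skin migrated cells from the popliteal and auricular LNs that drain it. A library is therefore a mixture of all CD45+ cell types that carried the mark. Each replicate is a separate pool, so p-values measure the spread between these pools, and no library exists from single animals. In such bulk samples, fewer cells of a type and less RNA per cell cannot be told apart. The 6 libraries not used are from nodes at steady state.

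Most myeloid cells that enter an inflamed tissue die there or stay, whereas dendritic cells that have matured, T cells and some B cells leave through lymphatic vessels and reach the node. Maturing dendritic cells turn on CCR7, the receptor that guides them into lymph, and fascin (Fscn1), which bundles actin for their movement. Interferons turn on antiviral and antigen-presentation genes in the cells that sense them, in part through interferon-stimulated response elements in promoters. Immunoglobulin RNA comes from B-lineage cells and is most abundant in plasma cells.

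Assigned counts were 35554698 to 43814403 in the 6 joint libraries and 19239531 to 22528895 in the 6 skin libraries, so depth differed with site. Reads outside any annotated gene were 0.293% to 0.562% in the joint and 0.0925% to 0.135% in the skin libraries. The study made the skin libraries as a second data set and compared them with joint populations obtained earlier. Site and data set therefore cannot be told apart in any gap between joint and skin. Levels are CPM, counts scaled to library size with TMM factors, and 3 counts in a library, taken as the floor, equal 0.0685 to 0.156 CPM before that scaling. With all libraries thinned to the smallest total, 587 and 335 genes were called in place of 665 and 364 below. Ptprc, which encodes CD45, was at 1203 ± 132 CPM in joint nonmigrated, 1564 ± 54.0 in joint migrated, 1236 ± 70.2 in skin nonmigrated and 1438 ± 105 in skin migrated cells (SD, n = 3 each), with a difference of 0.16 that was not called. The joint libraries numbered 2 stood apart in both compartments: Xist was at 1.45 and 3.55 CPM there against 394 to 987 in the other 10, and the Y-linked Kdm5d at 30.2 and 50.7 CPM against at most 0.57. Skin nonmigrated replicate 3 stood apart from replicates 1 and 2, with less T cell receptor complex RNA (0.0518% of counts against 0.133% and 0.160%) and more tissue macrophage RNA (0.865% against 0.181% and 0.312%). The study describes the pools as matched groups of male and female mice, and these Xist and Kdm5d levels differ between libraries as they do between the sexes. Leaving out both joint libraries numbered 2 therefore removes 1 pool from each joint group together with this sex-linked difference, and the part of sex in any result was not tested. The overall counts and those of the gene lists are given with and without these libraries where they move by more than 1.5 times.

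A gene is called where the edgeR quasi-likelihood test gave a Benjamini-Hochberg adjusted p under 0.05 over all 16777 genes and the absolute log2 difference was above 1. The migration change was more positive in the joint for 665 genes (3.96% of those tested, or 4.01% of genes other than immunoglobulin genes, which held all of them) and more negative for 364 (2.17%). Of the latter, 118 were immunoglobulin genes and 246 were not (1.48% of the 16587 others). At an unadjusted p under 0.05 there were 2355 genes with a positive and 2051 with a negative difference. Without skin nonmigrated replicate 3 the counts were 1504 and 1106, and without both joint libraries numbered 2 they were 171 and 127. Counts also fell by more than 1.5 times in 1 or both directions without joint nonmigrated replicate 2 (371 and 224), joint migrated replicate 2 (404 and 210), skin nonmigrated replicate 1 (378 and 204) or 2 (408 and 232), and skin migrated replicate 1 (429 and 239) or 2 (411 and 313).

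**Figure D1:**
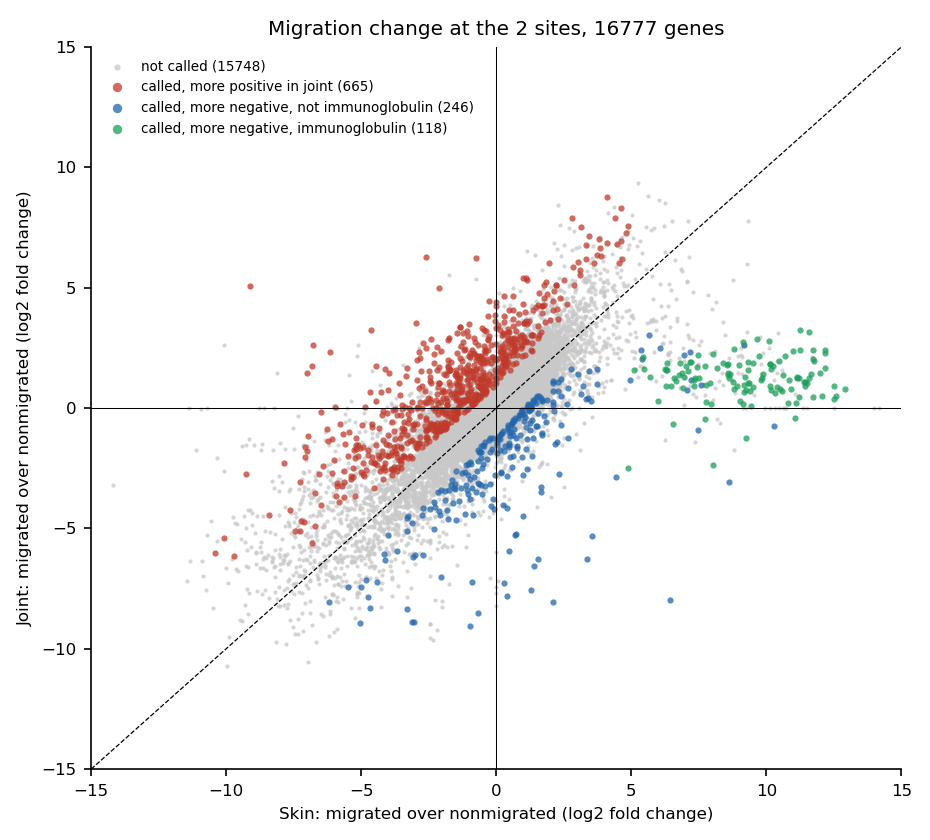
Each point is 1 of 16777 genes, with the log2 fold change of migrated over nonmigrated cells in skin on the horizontal and in joint on the vertical axis. Called genes lie on both sides of the dashed line of equal change, and the 118 called immunoglobulin genes (green) lie to the far right, with skin changes of 4.87 to 12.93 and joint changes of -2.48 to 3.25.

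The called genes fell into several directions, where rose and fell mean that the change at a site passed the same p and fold limits. A change with no call can still be below the p limit and short of the fold limit. At each site, genes higher in migrated cells made up 16.0% (joint) and 15.7% (skin) of those tested, and lower ones 18.4% and 19.7%. Among the 665 genes with the more positive change in the joint, 194 fell in the skin with no call in the joint, 181 rose in the joint with no call in the skin, 124 fell at both sites but less in the joint, 70 rose at both sites but more in the joint, 51 rose in the joint and fell in the skin, and 45 were called at neither site. Their median change was 0.86 in the joint and -1.41 in the skin, beside 0.02 and 0.01 over all genes tested. Among the 246 genes other than immunoglobulin genes with the more negative change in the joint, 86 fell in the joint with no call in the skin, 56 rose in the skin with no call in the joint, 56 fell at both sites, 16 rose at both, 12 fell in the joint and rose in the skin, and 20 were called at neither. Their medians were -1.71 in the joint and 0.48 in the skin.

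The same difference can be read as the gap between joint and skin in migrated cells minus that gap in nonmigrated cells. Nonmigrated cells held the larger gap for 613 of the 665 genes (92.2%), for 208 of the 246 (84.6%) and for 114 of the 118 immunoglobulin genes (96.6%). The same share over all genes tested was not computed. Both gaps are parts of the difference by which these genes were called, so the shares are no separate result about them. Calls between the sites were also more common in nonmigrated than in migrated cells over all genes, as the percentages below show. Of the 665, 569 were called lower in joint than in skin nonmigrated cells, where 8.86% of all genes were called in that direction. In migrated cells 22 of them were called higher and 5 lower in the joint, beside 0.56% and 0.578% of all genes. Of the 246, 174 were called higher in joint nonmigrated cells, where 5.45% of all genes were. The median gaps of the 665 genes were -1.94 in nonmigrated and 0.25 in migrated cells.

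**Figure D2:**
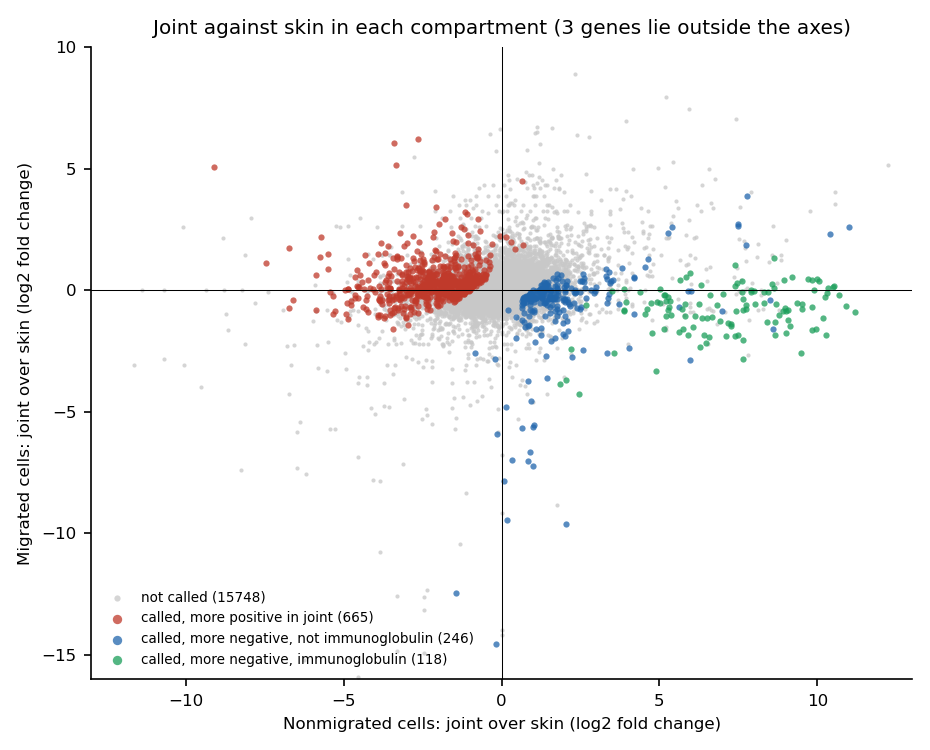
Each point is 1 gene, with its log2 fold change of joint over skin in nonmigrated cells on the horizontal and in migrated cells on the vertical axis (3 genes lie outside the axes). Called genes spread along the horizontal axis: 613 of the 665 red points and 114 of the 118 green points have their larger gap in nonmigrated cells. The same share was not computed for all genes.

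Socs1, which encodes a feedback inhibitor of cytokine and interferon signalling, had the smallest adjusted p. It lies at chr16:10782240-10785536 (mm10, minus strand). Its level was 21.4, 17.9 and 19.2 CPM in joint nonmigrated, 36.0, 40.9 and 42.5 in joint migrated, 103, 114 and 90.1 in skin nonmigrated and 35.0, 36.8 and 38.0 in skin migrated libraries. The 2 nonmigrated groups stood far apart and on either side of the migrated groups, whose values overlapped. Socs1 thus rose by 1.03 on leaving the joint and fell by 1.48 on leaving the skin, a difference of 2.51 (SE 0.163, edgeR adjusted p 7.99e-05).

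Il7r, the receptor chain for the T cell survival factor IL-7, had the same shape at 75.4, 79.7 and 106 CPM in joint nonmigrated, 424, 330 and 366 in joint migrated, 690, 421 and 577 in skin nonmigrated and 388, 324 and 397 in skin migrated libraries. Migrated cells of both sites overlapped, while skin nonmigrated cells held 6.48 times the joint level. Its difference was 2.71 (SE 0.273, edgeR adjusted p 0.000667), with a rise of 2.10 in the joint and a skin change of -0.61 that was short of the fold limit (edgeR adjusted p 0.0173). Among the other genes with the smallest adjusted p, 3 fell at both sites, and more in the skin: Grina, a membrane protein linked to protection from cell death, had a difference of 2.27, Carmil1, a regulator of actin capping, of 2.93, and Smox, which oxidizes spermine, of 3.41. Grina was at 2005 to 2444 CPM in skin nonmigrated against 518 to 657 in joint nonmigrated cells, and at 72.5 to 105 in all 6 migrated libraries. Parp10, which modifies proteins with ADP-ribose, fell in the skin with no call in the joint (difference 2.36), but it overlaps Plec on the same strand, and reads of the 2 may be split between them. Ctnnd2, a catenin of cell junctions, had a difference of 3.95, with 15.8 to 16.7 CPM in skin nonmigrated cells and at most 2.91 CPM in each of the other 9 libraries. Gcsam, a signalling adaptor of lymphocytes, rose in the joint from 1.2, 1.86 and 1.55 to 3.73, 3.38 and 6.27 CPM and fell in the skin from 8.69, 10.7 and 10.3 to 1.06, 1.38 and 1.89 CPM (difference 4.31).

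**Figure D3:**
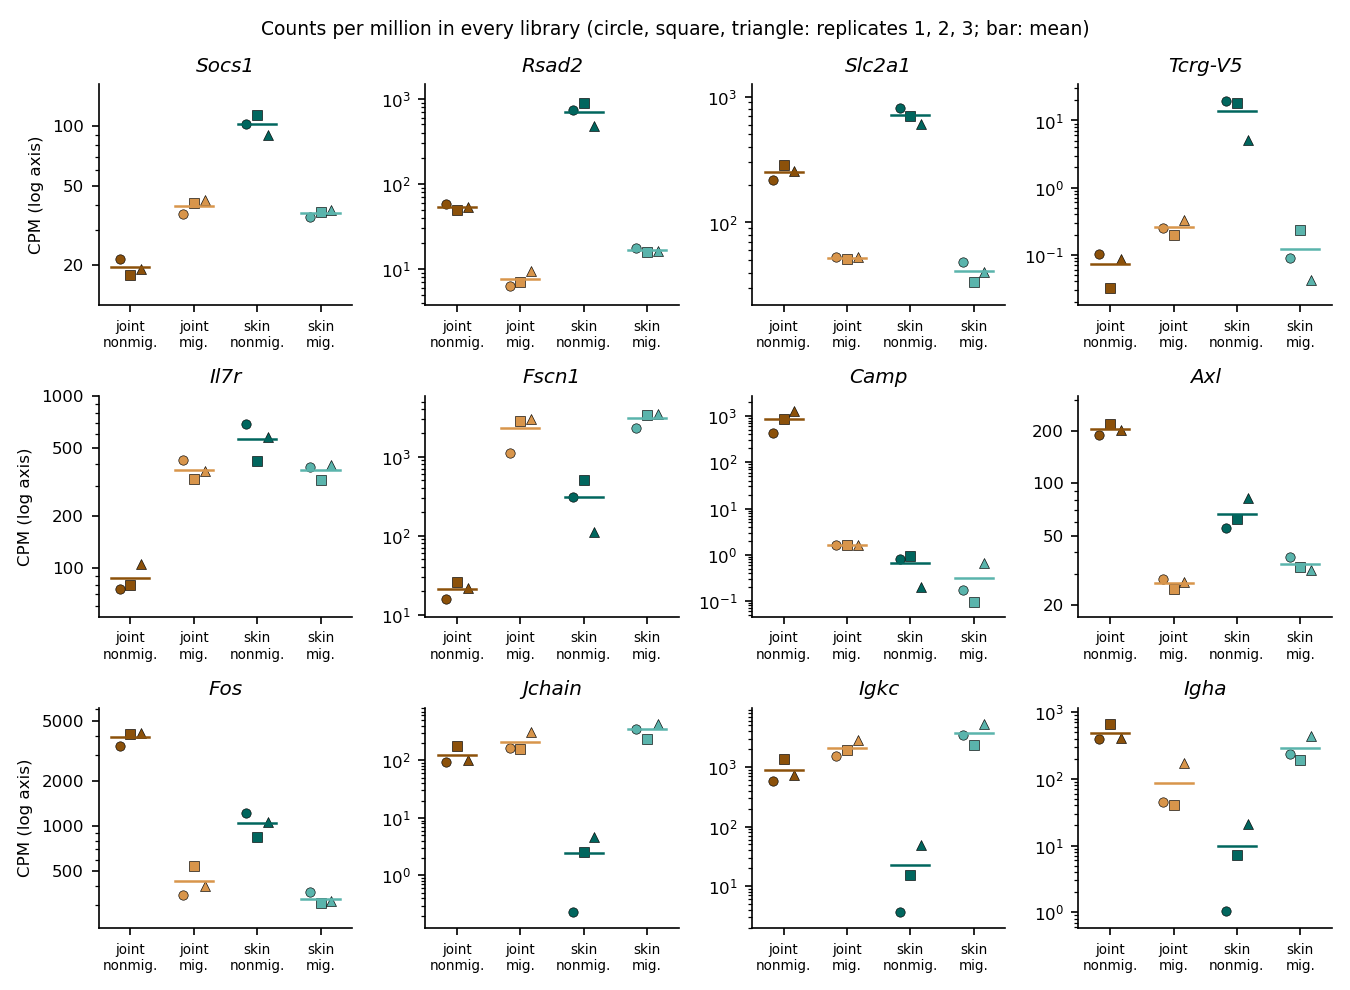
CPM on log axes for 12 of the named genes, with 1 symbol per library, shaped by replicate number, and a bar at the mean of each group of 3. For Socs1, Rsad2, Slc2a1 and Tcrg-V5 the skin nonmigrated libraries are the highest, for Camp, Axl and Fos the joint nonmigrated ones, and for Jchain, Igkc and Igha the skin nonmigrated libraries are the lowest.

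Most genes of the type I interferon response fell in migrated cells of both sites, and 11 of them fell further in the skin or fell there with no call in the joint. Of 26 genes of the list, all tested, 11 were called with the more positive change in the joint and 0 with the more negative (median difference 0.98, beside -0.01 over all genes). The list's median change was -1.55 in the joint, where 17 fell, and -2.62 in the skin, where 21 fell, and none rose at either site. Their share of all counts was highest in skin nonmigrated libraries, at 0.420% to 0.473%. It was 0.140% to 0.169% in joint nonmigrated libraries, and the migrated ranges were 0.106% to 0.122% (skin) and 0.0919% to 0.0988% (joint), so skin nonmigrated cells were the highest group without overlap. The count of 11 was 10 without skin nonmigrated replicate 3 and 8 without both joint libraries numbered 2.

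Rsad2, which encodes the antiviral enzyme viperin, was at 57.7, 50 and 52.9 CPM in joint nonmigrated, 6.25, 7.06 and 9.42 in joint migrated, 745, 883 and 475 in skin nonmigrated and 17.8, 16.1 and 16.5 in skin migrated libraries. The groups did not overlap, and the skin nonmigrated mean was 13.1 times the joint nonmigrated one. It fell by 2.82 in the joint and by 5.39 in the skin, a difference of 2.57 (SE 0.297, edgeR adjusted p 0.00105). Ifit1, which binds viral RNA, was at 27.3, 20.0 and 16.1 CPM in joint nonmigrated, 6.15, 7.02 and 7.13 in joint migrated, 160, 176 and 187 in skin nonmigrated and 15.8, 14.6 and 14.8 in skin migrated libraries (difference 1.89, SE 0.232, edgeR adjusted p 0.00139). Stat2, a transcription factor of this response, had a difference of 1.35 and Ifit2 of 2.33. Isg15, Irf7, Xaf1, Rtp4, Oasl1, Ifit3 and Ifit3b made up the rest of the 11. Ifit3 and Ifit3b are close copies, and the division of reads between them is uncertain.

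The promoters of Ifit1 and Rsad2, and of Socs1 from the interferon gamma list below, are shown because they hold the sequence GAAANNGAAA. This is the core of interferon-stimulated response elements, read on either strand (TTTCNNTTTC), and capitals mark the matches. The promoter sequences are from RefSeq (GRCm38.p6, the mm10 build) and run 5′ to 3′ on the gene's strand from 250 bases before to 50 after the start. The Socs1 promoter (chr16:10785487-10785786, minus strand) and the Ifit1 promoter (chr19:34640639-34640938, plus strand) hold 2 matches each, which overlap in Socs1, and the Rsad2 promoter (chr12:26456403-26456702, minus strand) holds 1.
Socs1: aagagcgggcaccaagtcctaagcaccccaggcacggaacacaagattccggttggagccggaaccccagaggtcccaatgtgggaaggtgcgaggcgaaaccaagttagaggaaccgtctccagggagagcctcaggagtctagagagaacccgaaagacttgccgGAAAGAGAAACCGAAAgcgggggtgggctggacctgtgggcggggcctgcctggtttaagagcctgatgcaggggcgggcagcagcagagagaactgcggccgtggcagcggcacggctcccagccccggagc
Ifit1: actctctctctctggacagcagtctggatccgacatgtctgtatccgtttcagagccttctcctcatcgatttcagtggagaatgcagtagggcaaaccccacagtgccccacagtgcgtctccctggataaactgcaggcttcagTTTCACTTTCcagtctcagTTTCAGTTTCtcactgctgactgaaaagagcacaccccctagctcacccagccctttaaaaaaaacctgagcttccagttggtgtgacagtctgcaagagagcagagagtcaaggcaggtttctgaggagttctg
Rsad2: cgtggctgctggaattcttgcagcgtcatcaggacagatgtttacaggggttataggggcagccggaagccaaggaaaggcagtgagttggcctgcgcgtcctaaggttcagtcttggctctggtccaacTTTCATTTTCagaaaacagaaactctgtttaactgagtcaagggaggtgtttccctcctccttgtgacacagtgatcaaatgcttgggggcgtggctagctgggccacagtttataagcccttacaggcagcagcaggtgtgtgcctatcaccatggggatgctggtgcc
Of 27025 gene symbols with a promoter in the table, 3.99% held a match. Among called genes with a promoter entry, 45 of 501 with the more positive change in the joint (8.98%) and 7 of 188 with the more negative change (3.72%) held one, beside 415 of 10972 genes that were not called (3.78%). In the type I interferon list 11 of 18 genes with an entry held a match. A match describes these letters alone, and binding was not measured.

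Interferon gamma response genes differed in the same direction, around a joint median near 0. Of 21 genes tested, 10 had the more positive change in the joint and 1 the more negative (median difference 1.14), with list medians of 0.01 in the joint and -1.48 in the skin. In the skin 14 fell and 1 rose, and in the joint 2 fell and 4 rose. Besides Socs1, the called genes were the guanylate-binding proteins Gbp4, Gbp5, Gbp6, Gbp7 and Gbp9, the immunity-related GTPases Igtp, Irgm1 and Tgtp1, and the transcription factor Irf1. Gbp4 was at 177, 102 and 79.1 CPM in joint nonmigrated, 145, 155 and 143 in joint migrated, 683, 648 and 575 in skin nonmigrated and 184, 181 and 179 in skin migrated libraries. Skin nonmigrated cells lay clear of the other groups, and the difference was 2.11 (SE 0.322, edgeR adjusted p 0.00416). Gbp4 overlaps Gbp8 and Gbp9, and Igtp overlaps Irgm2, so counts of single members are uncertain. Cxcl9, a chemokine for T cells, went the other way: 85.8, 93.1 and 75.1 CPM in joint nonmigrated against 24.1, 25.5 and 57.1 in skin nonmigrated cells, and a difference of -2.81 (SE 0.423, edgeR adjusted p 0.00410). The count of 10 was 11 without skin nonmigrated replicate 3 and 4 without both joint libraries numbered 2.

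Genes of the γδ T cell receptor were high in skin nonmigrated cells and low in joint nonmigrated cells. Of the 14 tested, 9 had the more positive change in the joint and 0 the more negative (median difference 2.65), whereas 0 of 85 tested αβ T cell receptor genes were called in either direction (median difference 0.92, 81 called higher in migrated cells of the joint and 64 of the skin). Tcrg-V5, a variable gene of the γ chain, lies at chr13:19192278-19192725. It was at 0.104, 0.0316 and 0.0858 CPM in joint nonmigrated, 0.254, 0.200 and 0.327 in joint migrated, 19.2, 17.9 and 5.12 in skin nonmigrated and 0.0885, 0.237 and 0.0421 in skin migrated libraries. All groups but skin nonmigrated sat near the floor, and its difference was 8.56 (SE 0.954, edgeR adjusted p 0.00105). The constant genes moved less. Tcrg-C1 was at 2.99, 5.24 and 6.07 CPM in joint nonmigrated, 52.0, 31.5 and 30.9 in joint migrated, 79.9, 81.3 and 25.3 in skin nonmigrated and 30.0, 23.1 and 37.6 in skin migrated libraries, a difference of 4.04 (SE 0.596, edgeR adjusted p 0.00378). Trdc, the δ constant gene, had a difference of 3.26 and Trdv4 of 4.67. Tcrg-C1, Trdc and Trdv4, and the division into γδ and αβ genes, were chosen after their values were seen. Of the γδ genes, 10 were called without skin nonmigrated replicate 3 and 4 without both joint libraries numbered 2.

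T cell receptor complex genes were higher in migrated cells of both sites. Of 16 genes of the T cell receptor complex and its signalling, all 16 rose in the joint and 13 in the skin (medians 2.80 and 1.47). For 3 the difference was called: Cd3e (1.91), Cd3g (1.99) and Cd247 (1.73), all subunits of the CD3 complex. These 3 calls were lost in 9, 10 and 11 of the 12 fits that left out 1 library, with adjusted p (edgeR) of at most 0.0918, 0.106 and 0.119, while 14 of the 16 genes were called without skin nonmigrated replicate 3. Cd3e was at 15.8, 26.9 and 32.6 CPM in joint nonmigrated, 231, 196 and 152 in joint migrated, 115, 114 and 42.7 in skin nonmigrated and 183, 186 and 184 in skin migrated libraries. The migrated groups overlapped and the joint nonmigrated libraries were the lowest.

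Of 9 regulatory T cell genes, all rose in the joint and 7 in the skin, and 3 had the more positive change in the joint (median difference 1.89), namely Foxp3, the factor that defines these cells (2.24), Ikzf4 (3.21) and Tnfrsf18 (1.89). Foxp3 overlaps Flicr on the same strand. Foxp3 rose from 6.47, 11.2 and 10.2 to 159, 142 and 129 CPM in the joint and from 48.3, 49.3 and 20.0 to 156, 126 and 102 CPM in the skin, so its levels overlapped in migrated cells. Without skin nonmigrated replicate 3, 8 of the 9 were called, and without both joint libraries numbered 2, 0 were. Gzmb, the protease granzyme B of killer lymphocytes, was at 19.8, 38.9 and 29.8 CPM in joint nonmigrated against 223, 351 and 94.8 in skin nonmigrated cells, with 122 to 171 in all migrated libraries and a difference of 2.73 (SE 0.527, edgeR adjusted p 0.0113). It was the 1 called of 12 cytotoxic and NK cell genes, whose median difference was 1.02. Of 11 Th1 and effector T cell genes, Il12rb2, a chain of the IL-12 receptor (2.22), and Il2 (3.52) were called, and both calls were lost in most fits that left out 1 library (7 and 11 of 12).

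Most genes of mature dendritic cells rose in migrated cells of both sites. Of 13 genes of mature migratory dendritic cells tested, 11 rose in the joint and 12 in the skin (medians 4.09 and 2.16), and 5 had the more positive change in the joint: Fscn1 (3.47), Cacnb3 (3.03), Ccr7 (2.71), Apol7c (2.48) and Socs2. Fscn1 was at 15.9, 25.7 and 21.5 CPM in joint nonmigrated, 1108, 2834 and 2965 in joint migrated, 310, 509 and 110 in skin nonmigrated and 2338, 3397 and 3457 in skin migrated libraries. Nonmigrated cells of the skin held 14.7 times the joint level, while the migrated groups overlapped (difference SE 0.695, edgeR adjusted p 0.0131). Ccr7 went from 25.4, 43.0 and 46.0 to 647, 1100 and 1600 CPM in the joint and from 262, 366 and 76.0 to 1006, 861 and 1273 CPM in the skin. Its call was lost in 10 of 12 fits that left out 1 library (highest edgeR adjusted p 0.0821). Without skin nonmigrated replicate 3, 8 of the 13 were called higher and 1 lower, and without both joint libraries numbered 2, 0 were called.

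Among 14 genes of conventional dendritic and Langerhans cells, 5 had the more positive change in the joint and 0 the more negative (median difference 0.99). In the fit without skin nonmigrated replicate 3, 1 of the 14 was more negative in the joint. The positive count was 1 without both joint libraries numbered 2 and 2 to 6 with 1 library left out. Itgae, the αE integrin CD103 of epidermal T cells and some dendritic cells, was at 6.96, 13.6 and 11.8 CPM in joint nonmigrated, 195, 134 and 134 in joint migrated, 92.6, 118 and 41.6 in skin nonmigrated and 128, 94.7 and 88.4 in skin migrated libraries (difference 3.54, SE 0.5, edgeR adjusted p 0.00309). It rose in the joint by 3.84, and its skin change of 0.30 was not called. Cd207, the Langerhans cell lectin langerin, was at 3.37, 4.42 and 1.28 CPM in skin nonmigrated libraries and at most 0.285 CPM in each of the other 9 (difference 4.74, SE 0.997, edgeR adjusted p 0.0161). Xcr1 (2.03) and Clec9a, of cross-presenting dendritic cells, and Zbtb46 (1.67), a dendritic cell transcription factor, completed the 5, and Xcr1 and Zbtb46 lost their call in 7 and 10 of 12 fits that left out 1 library. MHC class II genes were mixed: H2-DMb2 (1.05), H2-Ob (1.67) and H2-Oa (1.37), subunits of the DM and DO proteins that help or hold back peptide loading, were the 3 of 9 called, and the list's median difference was -0.60. In the fit without skin nonmigrated replicate 3, 3 of the 9 had the more positive and 4 the more negative change in the joint. With 1 library left out the counts were 0 to 3 and 0 to 4.

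Of 22 chemokine receptor genes, 6 had the more positive change in the joint and 1 the more negative (median difference 1.46). The counts were 10 and 2 without skin nonmigrated replicate 3 and 0 and 1 without both joint libraries numbered 2. Ccr6, found on Th17 cells, B cells and some γδ T cells, rose from 1.66, 1.67 and 3.12 to 70.9, 47.4 and 53.1 CPM in the joint and from 6.92, 9.07 and 2.32 to 26.0, 22.0 and 19.7 CPM in the skin (difference 2.84, SE 0.561, edgeR adjusted p 0.0124). Here the migrated groups did not overlap, with joint above skin. Ccr1, a receptor of neutrophils and monocytes, fell at both sites, from 306 to 347 CPM in joint nonmigrated and 881 to 1041 in skin nonmigrated cells to 5.18 to 9.26 CPM in all migrated libraries (difference 1.21, SE 0.262, edgeR adjusted p 0.0181). Ackr2, a scavenger of inflammatory chemokines, had a difference of 2.87 at 1.88 CPM or less throughout. The sphingosine-1-phosphate receptor S1pr1, which lets T cells leave tissue, rose at both sites and its difference of 0.41 (SE 0.238) was not called. Cx3cr1, a receptor of monocytes and macrophages, had the more negative change in the joint (-1.68).

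Of 17 inflammatory cytokine and chemokine genes, 16 fell in the joint and 15 in the skin (medians -3.52 and -5.39), and for Ccl3 (3.19), Ccl4 (2.81) and Cxcl3 (3.57) the difference was called. Ccl3, a chemokine for monocytes and T cells, was at 91.3, 127 and 153 CPM in joint nonmigrated and 1795, 2043 and 542 in skin nonmigrated libraries, and at 9.74 to 18.4 CPM in all migrated ones. Skin nonmigrated replicate 3 was the lowest of its group but still above every joint library. Without it 8 of the 17 were called, and without both joint libraries numbered 2, 0 were. Il12a, a subunit of IL-12 and IL-35, had a difference of 5.48 (SE 0.975, edgeR adjusted p 0.00775), falling from 30.8, 18.3 and 6.90 to 0.265, 0.0475 and 0.0842 CPM in the skin and from 2.23, 3.16 and 7.87 to 1.54, 1.24 and 1.55 CPM in the joint.

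Of 14 genes of glycolysis and the hypoxia response, 12 fell in the joint and 13 in the skin, and 5 had the more positive change in the joint and 0 the more negative (median difference 0.81). Slc2a1, the glucose transporter GLUT1, was at 217, 288 and 255 CPM in joint nonmigrated, 52.8, 51.3 and 52.8 in joint migrated, 818, 698 and 611 in skin nonmigrated and 48.6, 33.5 and 40.7 in skin migrated libraries. The nonmigrated groups did not overlap, and the difference was 1.84 (SE 0.223, edgeR adjusted p 0.00131). Egln3, an oxygen sensor that is itself induced by low oxygen, had a difference of 3.35, Ankrd37 of 2.42 and Bnip3, a mitophagy receptor, of 1.90. The count of 5 was 5 without skin nonmigrated replicate 3 and 4 without both joint libraries numbered 2.

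Keratinocyte RNA was high in skin nonmigrated replicates 1 and 2. Keratinocyte genes took 0.00478% to 0.0389% of counts in skin nonmigrated libraries, lowest in replicate 3, against 0.00174% to 0.00184% in joint nonmigrated ones, and 9 of 11 tested fell in the skin. Migrated libraries held 0.00314% to 0.00421% (skin) and 0.00387% to 0.00453% (joint), close to skin nonmigrated replicate 3. Krt5, a keratin of basal epidermis, was at 69.0, 143 and 11.6 CPM in skin nonmigrated and 0 in all 3 skin migrated libraries. Pkp1, of desmosomes, at 7.78, 13.8 and 1.38 CPM, and Col17a1, of the epidermal basement membrane, at 28.1, 57.2 and 4.58 CPM in skin nonmigrated libraries, were among the genes with the largest differences (8.47 and 6.2). Their skin nonmigrated means were 109 and 102 times the joint nonmigrated and 75.1 and 21.6 times the skin migrated means. Pkp1 thus lay near the floor in joint nonmigrated and skin migrated cells. The part of keratinocyte RNA in the other differences was not tested. Sfn was the 1 keratinocyte gene called of 11, with 7 called without skin nonmigrated replicate 3. Of 12 mast cell and basophil genes, 11 fell in the skin and 4 in the joint (median difference 3.74), and 1 was called: Gata2, a transcription factor of these cells, at 161, 293 and 70.0 CPM in skin nonmigrated against 9.64, 10.9 and 19.7 in joint nonmigrated libraries (difference 5.24, SE 0.928, edgeR adjusted p 0.00766). Gata2 was not typical of its list, whose median gap of joint over skin was 0.52 in nonmigrated and 4.0 in migrated cells. The list's share of counts was 0.0689% to 0.130% in skin nonmigrated and 0.0231% to 0.0633% in joint nonmigrated libraries. In migrated libraries it was 0.00294% to 0.00324% (skin) and varied from 0.00435% to 0.0334% between the joint pools. Other genes with the largest positive differences were Unc5b, a netrin receptor (6.35), Avil, an actin regulator (6), Grm6, a glutamate receptor (6.5), and the transcript Gm13369 (at least 3.47), and each had its highest mean in skin nonmigrated cells. The call of Gm13369 was lost in 9 of 12 fits that left out 1 library (highest edgeR adjusted p 0.093). The endothelial genes Pecam1 (2.03) and Kdr (2.00) and the platelet integrin gene Itga2b (2.86) were also called, in lists of 10 and 6. Their lists were mixed. Of the endothelial differences 6 were positive and 4 negative, with a median of 0.96 as fitted and -0.93 with genes at the floor set to their bound. The median endothelial gap of joint over skin in nonmigrated cells was 0.48. Of the platelet differences 4 were positive and 2 negative, and in joint nonmigrated cells 2 platelet genes were called higher and 1 lower.

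Turning to the more negative changes, genes of neutrophil granules were higher in joint than in skin nonmigrated cells and low in migrated cells of both sites. Of 10 secondary and tertiary granule genes, 4 had the more negative change in the joint and 0 the more positive (median difference -2.04), and all 10 fell in the joint and 8 in the skin. Their share of counts was 0.553% to 1.79% in joint nonmigrated and 0.0544% to 0.0927% in skin nonmigrated libraries. Camp, the antimicrobial peptide cathelicidin, at chr9:109847379-109849617, was at 436, 866 and 1301 CPM in joint nonmigrated, 1.64, 1.62 and 1.61 in joint migrated, 0.801, 0.952 and 0.197 in skin nonmigrated and 0.177, 0.0950 and 0.674 in skin migrated libraries. Only joint nonmigrated cells held more than trace amounts, and the difference was -8.09 (SE 1.13, edgeR adjusted p 0.00288). Itgb2l, an integrin β subunit of neutrophil precursors, at 90.2, 153 and 245 CPM in joint nonmigrated and 0.443 to 4.94 CPM in the other 9 libraries, had a difference of -7.81 (SE 0.726, edgeR adjusted p 0.000430). Ltf, which encodes lactoferrin (-5.87), and Ngp (-3.90) were the other 2. The count of 4 was 2 without both joint libraries numbered 2, and Ngp lost its call in 8 of 12 fits that left out 1 library (highest edgeR adjusted p 0.216) and with the replicate number as a block (0.0706). The azurophil granule genes of promyelocytes had a median difference of -4.5 with 0 of 8 called by edgeR in the main fit: Mpo, at 135, 637 and 556 CPM in joint nonmigrated libraries and at most 1.33 CPM in all others, had an adjusted p of 0.228. With the replicate number as a block, Mpo and Prtn3, another gene of that list, were called (edgeR adjusted p 0.0285 and 0.0059). For genes of mature neutrophils, in contrast, the median difference was 0.61, and Slpi (2.64) was the 1 called of 17. S100a8 and S100a9, the calprotectin subunits of neutrophils, had differences of -0.16 and -0.33 that were not called.

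Some B-lineage genes also had the more negative change in the joint. The B cell precursor list, whose genes serve the pre-B cell receptor and its recombination, had 5 of 6 that fell in the joint (median -7.50), and 3 of the 6 had the more negative change there: Vpreb1 (at most -6.35), Igll1 (at most -6.30) and Vpreb3 (at most -3.21), where the bound sets a group with no library above 3 counts to its floor. Igll1, a surrogate light chain, was at 5.02, 2.78 and 17.6 CPM in joint nonmigrated and at most 0.285 CPM in all other libraries. The count of 3 was 1 without both joint libraries numbered 2, and Vpreb3 and Igll1 lost their call in 7 and 5 of 12 fits that left out 1 library (highest edgeR adjusted p 0.0667 and 0.994). Vpreb1 overlaps Top3b on the opposite strand. Genes of B cell identity rose at both sites (16 of 18 each, medians 2.60 and 3.68), and 3 of the 18 had the more negative change in the joint, the transcription factor Pax5 (-4.78) and the receptor signalling chain Cd79a (-2.93) among them. Over this list 11 differences were negative and 7 positive (median -1.06), and those of Cd22, Cd79b, Cr2 and Rasgrp3 were not called. Pax5 went from 20.6, 17.5 and 61.6 to 171, 120 and 164 CPM in the joint and from 0.286, 0.0560 and 0.197 to 24.4, 13.6 and 31.0 CPM in the skin (SE of the difference 0.903, edgeR adjusted p 0.0101). The count was 6 without skin nonmigrated replicate 3, where 1 gene was more positive, and 2 without both joint libraries numbered 2. The skin rise began near the floor, and the joint level was the higher one in both compartments. Of 12 plasma cell genes, 3 were called: Jchain, which joins IgM and IgA (-6.33), Mzb1, a chaperone of antibody secretion (-3.57), and Irf4 (-1.24). The count was 6 without skin nonmigrated replicate 3, where again 1 was more positive, and 1 without both joint libraries numbered 2, and Irf4 lost its call in 4 of 12 fits that left out 1 library. Jchain was at 95.2, 178 and 102 CPM in joint nonmigrated, 162, 160 and 309 in joint migrated, 0.229, 2.58 and 4.68 in skin nonmigrated and 356, 239 and 436 in skin migrated libraries, and it rose in the skin, while its joint change of 0.75 was not called (SE of the difference 0.824, edgeR adjusted p 0.00185).

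Some of the smallest adjusted p belonged to genes that fell in the joint with no call in the skin. Axl, a receptor for dying cells on macrophages, was at 190, 219 and 203 CPM in joint nonmigrated, 28.2, 24.7 and 27.1 in joint migrated, 55.0, 62.3 and 82.0 in skin nonmigrated and 37.9, 33.0 and 31.9 in skin migrated libraries (difference -1.98, SE 0.200, edgeR adjusted p 0.000667). It fell 7.64-fold in the joint, and its skin change of -0.96 had an edgeR adjusted p of 0.000158 but was short of the fold limit. Prg4, which encodes the joint lubricant lubricin, was at 69.7 to 94.1 CPM in joint nonmigrated and at most 12.4 CPM in the other libraries (difference -3.88, SE 0.424, edgeR adjusted p 0.001), and it overlaps Tpr on the opposite strand. Lbp, the lipopolysaccharide-binding protein, was at 22.5, 38.5 and 57.1 CPM in joint nonmigrated and at most 4.60 CPM elsewhere (difference -6.41, SE 0.780, edgeR adjusted p 0.00131). As lists, tissue macrophage genes had 0 of 16 called (median difference -1.09, 7 called without skin nonmigrated replicate 3), inflammatory monocyte genes 0 of 10 (0.01) and fibroblast genes 0 of 11 (-0.35).

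The study picked 15 leukocyte migration genes as higher in joint nonmigrated cells than in the other 3 populations of these samples, so their direction here is no independent evidence. All 15 were tested, 7 had the more negative change in the joint and 0 the more positive (median difference -1.92). Ceacam1, an adhesion molecule, was at 150, 157 and 214 CPM in joint nonmigrated, 16.4, 18 and 25.2 in joint migrated, 37.0, 45.1 and 41.0 in skin nonmigrated and 27.2, 20.4 and 28.7 in skin migrated libraries (difference -2.44, SE 0.277, edgeR adjusted p 0.00105). Its skin change of -0.69 had an edgeR adjusted p of 0.00998 and was short of the fold limit. F11r, which encodes the junctional adhesion molecule JAM-A, was at 183, 143 and 96.7 CPM in joint nonmigrated, 21.6, 52.2 and 49.5 in joint migrated, 45.3, 56.4 and 54.4 in skin nonmigrated and 56.8, 54.4 and 77.3 in skin migrated libraries. It fell by 1.78 in the joint, its skin change of 0.27 was not called, and the difference was -2.05 (SE 0.439, edgeR adjusted p 0.0174). Without skin nonmigrated replicate 1 the edgeR adjusted p of F11r was 0.0540, without both joint libraries numbered 2 it was 0.0616, and with the replicate number as a block it was 0.0560, so the call was lost in each of these 3 fits. Anxa1, an anti-inflammatory phospholipid-binding protein (-1.83), Angpt1, a vascular growth factor (at most -3.51), Jam2 (at most -4.32), Epx, the eosinophil peroxidase (at most -6.17), and Cx3cr1 made up the other 5, and Mmp9 (-1.89), Cd177 (-2.19) and Selp (-1.66) were among the 8 not called.

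Immediate early and heat shock genes turn on rapidly after a stimulus or tissue handling. Of 15, 5 had the more negative change there and 0 the more positive (median difference -0.66). Fos was at 3446, 4116 and 4176 CPM in joint nonmigrated, 346, 540 and 401 in joint migrated, 1228, 846 and 1068 in skin nonmigrated and 365, 309 and 315 in skin migrated libraries (difference -1.52, SE 0.265, edgeR adjusted p 0.00689). Joint nonmigrated cells were the highest and the migrated groups overlapped. Fosb (-2.75), Egr2 (-1.33), Nr4a1 (-2.43) and Zfp36 were called too, and the count was 1 without both joint libraries numbered 2. The protocol adds a machine homogenization step for joint tissue after digestion, and that step and the site cannot be told apart. Klf2, a quiescence factor of T cells, had a difference of -1.51, with changes called at neither site. Of 23 cell cycle genes, 22 rose in the skin and 5 in the joint. Aurkb, a mitotic kinase (-1.41) was the 1 gene of them whose difference was called, its call was lost in 7 of 12 fits that left out 1 library (highest edgeR adjusted p 0.110), and the list's median difference was -0.96.

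A set of salivary gland genes was high in skin migrated cells and varied widely among their pools. Car6 and Amy1 were named for the size of their difference, and the others of the set were chosen after their values were seen. Amy1, the salivary amylase, was at 3877, 214 and 1358 CPM in skin migrated and at most 1.60 CPM in all other libraries (difference -11.03, SE 1.43, edgeR adjusted p 0.00184), and it overlaps Rnpc3. Car6, a secreted carbonic anhydrase, was at 580, 28.7 and 189 CPM in skin migrated libraries, with a difference of at most -11.73. Bpifa2, a saliva protein, was at 15579, 704 and 5779 CPM there, at 4.09 to 6.26 CPM in skin nonmigrated and at 0 in all 6 joint libraries, so no fold could be fitted in the joint. Of the 7 genes of the set that were tested, 4 had the more negative change in the joint. All 8 together took 0.130% to 2.70% of counts in skin migrated libraries and at most 0.00127% in every other one. In skin-draining nodes at steady state they took at most 0.000309%. These cells were sorted as CD45+, and where this RNA came from was not tested.

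Immunoglobulin genes formed the largest single group, and all of their called differences had the same sign. Of 190 tested, 118 had the more negative change in the joint and 0 the more positive, and at an unadjusted p under 0.05 the counts were 159 and 0. In the skin 177 rose and 0 fell (median change 8.61), and in the joint 69 rose and 2 fell (median 1.41). All immunoglobulin genes of the table together took 0.00552% to 0.0244% of counts in skin nonmigrated libraries and 0.190% to 0.395% in joint nonmigrated ones. The migrated ranges were 0.972% to 1.96% (skin) and 0.704% to 1.17% (joint). Only the migrated groups overlapped, and the nonmigrated level was the higher one in the joint. Of the 118, 113 were called higher in joint than in skin nonmigrated cells, and in migrated cells 2 were called lower in the joint and 0 higher. For 83 of the 118, at least 1 group had no library above the floor. With those at their bound, the median difference was -5.28, beside -8.18 as fitted. The count was 130 without skin nonmigrated replicate 3 and 75 without both joint libraries numbered 2.

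Among the constant region genes, 9 of 12 were called. Igkc, the κ light chain constant gene at chr6:70726435-70726966, was at 591, 1352 and 722 CPM in joint nonmigrated, 1500, 1934 and 2853 in joint migrated, 3.66, 15.6 and 49.2 in skin nonmigrated and 3502, 2353 and 5323 in skin migrated libraries. It rose 163-fold on leaving the skin, its joint change of 1.24 was not called, and the difference was -6.11 (SE 1.01, edgeR adjusted p 0.00556). The called heavy chain genes had differences of -3.29 for Ighm (IgM), -5.26 for Ighg1, -6.39 for Ighg2b, -6.75 for Ighg2c and -8.63 for Ighg3 (all IgG), and the λ constant genes Iglc1 and Iglc2 of -7.98 and -5.26. Ighg1 lost its call in 8 of 12 fits that left out 1 library (highest edgeR adjusted p 0.0771). Igha, the IgA heavy chain, changed in opposite directions: 392, 654 and 408 CPM in joint nonmigrated and 45.6, 40.0 and 174 in joint migrated, but 1.03, 7.11 and 21.3 in skin nonmigrated and 237, 189 and 443 in skin migrated libraries. It fell by 2.48 in the joint and rose by 4.87 in the skin, a difference of -7.36 (SE 1.2, edgeR adjusted p 0.00512).

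Ighd, the IgD gene of naive B cells, was at 9.07, 14.7 and 22.3 CPM in joint nonmigrated, 292, 209 and 258 in joint migrated, 2.00, 1.18 and 1.08 in skin nonmigrated and 37.6, 31.0 and 50.8 in skin migrated libraries. It rose by 4.04 in the joint and 4.82 in the skin, and the difference of -0.77 (SE 0.470) was not called, nor were those of Ighe (-1.55) and Iglc3 (-2.17). Among variable genes, 54 of 87 heavy, 52 of 85 κ and 3 of 3 λ genes were called. Median differences of the tested genes were -7.53, -7.30 and -7.15 as fitted. For 71 heavy, 65 κ and 1 λ genes, at least 1 group had no library above the floor. With those at their bound, the medians were -4.42, -4.6 and -4.51, leaving out 4 heavy and 2 κ genes for which no bound exists. The heavy count was 31 without both joint libraries numbered 2. Igkv8-30 was at 7.61, 13.1 and 7.50 CPM in joint nonmigrated, 14.2, 9.89 and 15.2 in joint migrated, 0 in all 3 skin nonmigrated and 21.3, 31.6 and 21.5 in skin migrated libraries, so its difference is at most -6.94. Igkv3-2 (at most -6.97), Ighv4-1 (at most -6.41) and Ighv2-9-1 (at most -6.93) showed the same, with 0 in the 3 skin nonmigrated libraries. Closely related variable genes share sequence, so counts of single genes are uncertain.

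**Figure D4:**
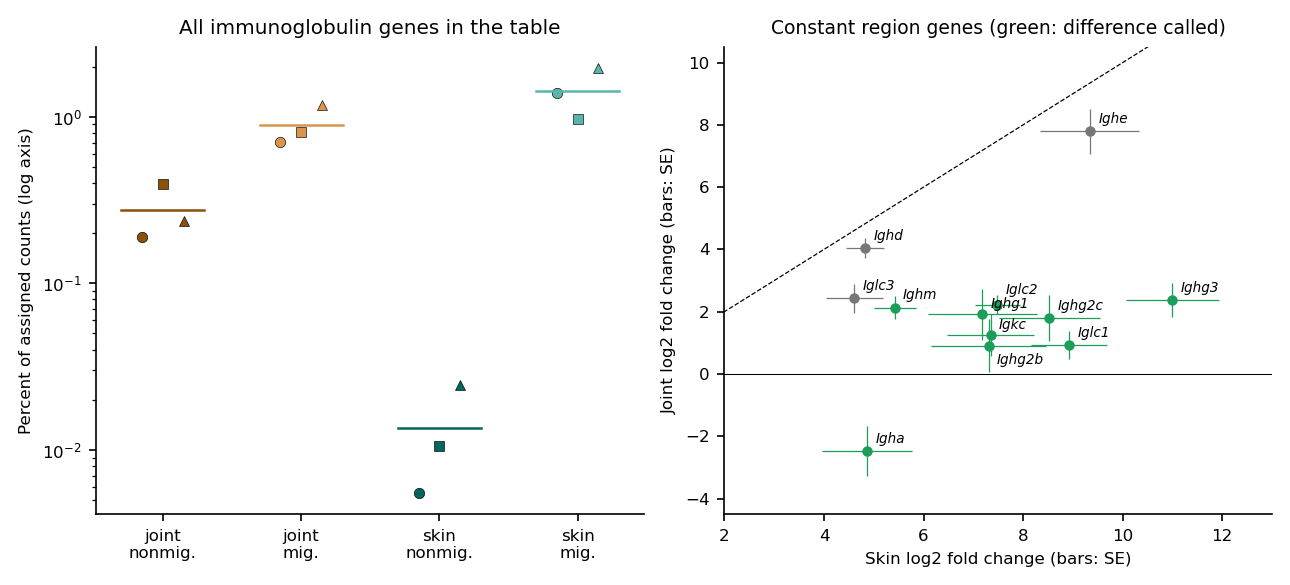
Left, the percent of assigned counts from all immunoglobulin genes on a log axis, 1 symbol per library and a bar at the group mean: skin nonmigrated libraries lie lowest, at 0.00552% to 0.0244%. Right, the log2 fold change of migrated over nonmigrated cells for 12 constant region genes in skin (horizontal) and joint (vertical) with SE bars: all lie below the dashed line of equal change, 9 are called (green), and Igha alone lies below 0 in the joint.

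In the ribosomal protein list 1 of 96 was called, with a list median of -0.24, and that one, Rps6ka2, is a kinase whose symbol the list's rule also takes in. Among the named genes, Slc2a1, Ankrd37, Bnip3, Avil, Grm6, Trdc, Ikzf4, Tnfrsf18, Il12rb2, Cd247, Cx3cr1, Pax5 and Angpt1 overlap genes on the opposite strand and Mzb1 one on the same strand, so reads of these pairs may not be fully separated. The remaining lists had few calls. Eosinophil genes had 2 of 9 more negative in the joint (Epx and Prg2), cartilage and bone genes 1 of 11 (Prg4), naive T cell genes 1 in each direction of 9 (Il7r and Klf2), and plasmacytoid dendritic cell, skeletal muscle and erythroid genes 0 of 5, 6 and 8. The fit without skin nonmigrated replicate 3 differed for several lists: 16 αβ T cell receptor, 7 Th1, 5 cytotoxic, 3 mast cell, 3 naive T cell, 1 cartilage and 3 mature neutrophil genes had the more positive change in the joint. In that fit 3 endothelial, 3 eosinophil, 2 cartilage, 2 fibroblast and 2 naive T cell genes had the more negative one, and 1 each of the azurophil, mature neutrophil, plasmacytoid, platelet and muscle lists. Of all 17726 genes other than immunoglobulin genes, that fit called 1504 more positive and 976 more negative in the joint. List counts as small as 1 are therefore no result about their lists. Without both joint libraries numbered 2, 0 genes were called in the T cell receptor complex, Th1, cytotoxic, keratinocyte, mast cell, mature neutrophil, platelet, cell cycle and ribosomal lists, 1 in the eosinophil list and 2 in the salivary gland set.

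**Figure D5:**
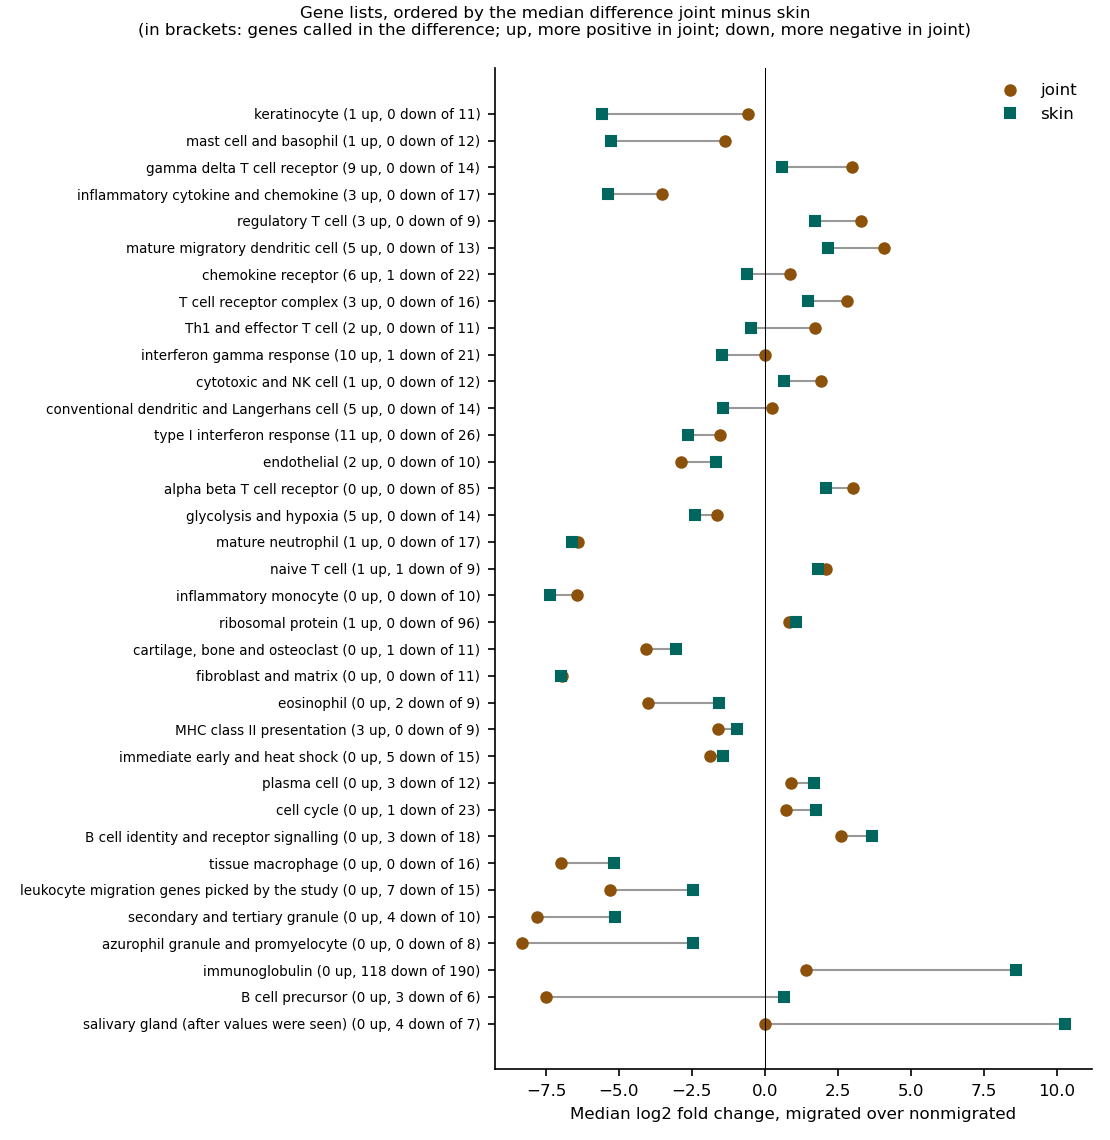
For each gene list, the median log2 fold change of migrated over nonmigrated cells in joint (brown circles) and skin (teal squares), ordered by the median difference, with the counts of called genes in brackets. The joint median lies to the right for the interferon, T cell and dendritic cell lists and to the left for the granule, B cell and immunoglobulin lists, with the longest lines for B cell precursor, salivary gland and immunoglobulin genes. All medians are as fitted. With genes at the floor set to their bound, the median differences of these lists were -4.76, -8.14 and -4.51, in place of -7.91, -10.49 and -7.26.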

How the data were processed

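RNA was measured in CD45+ Kaede red+ cells of 12 libraries, 3 per group, and 6 libraries from steady-state nodes entered 1 alternative fit and the share of salivary gland genes. Paired-end reads had been trimmed with Trim Galore, aligned with TopHat2 to mm10 and assigned to Ensembl genes with HTSeq-count, and the authors deposited raw counts per gene. The strand setting of the counting is not given in the sources used here beyond the default, so genes that overlap on either strand are named as such. HTSeq's 5 summary lines (11.27% to 12.68% of reads) were kept out of library sizes, and symbols were taken from an annotation table for 49326 of 49585 genes.

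Genes were kept by edgeR's filterByExpr with a minimum count of 10. A quasi-likelihood model with 4 group means, TMM factors and 8 residual degrees of freedom was fitted with edgeR 4.0.16 in R 4.3.3 (limma 3.58.1), and all contrasts came from this fit, so the joint and skin changes and the gaps between sites are pieces of the same difference. SE is the absolute log2 value divided by the square root of F. p-values were adjusted by Benjamini-Hochberg over all genes tested. Tables and plots used Python 3.11.15, pandas 2.3.3, numpy 2.4.6 and matplotlib 3.10.9. The code of the fit was run on simulated counts with planted differences. The planted genes lay well above the floor and no pool was made to stand apart. That run therefore does not bear on genes near the floor or on the weight of single pools.

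The comparison, the gene lists and the named genes were chosen with earlier results of these data known. Named genes are, in each direction, the 8 with the smallest adjusted p and the 8 with the largest difference among called genes (at least 5 CPM in 1 group), immunoglobulin constant genes and the 4 variable genes with the largest difference, up to 4 called members of each list (the 2 most abundant where fewer than 2 were called) and migration genes the study names. Other list members are named only to complete a count and were chosen after their values were seen, as were the γδ T cell receptor and salivary gland sets. Alternatives were DESeq2 1.42.0 and other normalizations, filters, thresholds, blocks and sets of libraries. The fit without both joint libraries numbered 2 was added after seeing the data. Columns of the table all mapped to samples. The values of 1 called gene are not reported here.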

Additional observations from a re-analysis of the deposited data

Results flagged for a closer look

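Each result here is a test of the difference between the 2 sites itself, which is why it is listed. The counts of genes whose migration change differed between joint and skin were 665 with the more positive and 364 with the more negative change in the joint, the latter including 118 immunoglobulin genes.

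Of the named genes, 9 were called in opposite directions at the 2 sites and for the difference. Socs1 (difference 2.51), Gcsam (4.31), Grm6 (6.5) and Il2, a T cell growth factor (3.52), rose on leaving the joint and fell on leaving the skin. Il2 was at 0.156, 0.379 and 0.458 CPM in joint nonmigrated, 1.23, 1 and 1.06 in joint migrated, 1.94, 3.02 and 0.542 in skin nonmigrated and 0.708, 0.095 and 0.758 in skin migrated libraries, and its call was lost in 11 of 12 fits that left out 1 library.

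Itgb2l (-7.81), Igha (-7.36), Angpt1 (-3.67 as fitted, at most -3.51 with the floor), Nr4a1 (-2.43) and Car6 (-14.41 as fitted, at most -11.73 with the floor) fell on leaving the joint and rose on leaving the skin. Nr4a1, an immediate early nuclear receptor, was at 761, 930 and 1187 CPM in joint nonmigrated, 312, 320 and 534 in joint migrated, 123, 99.3 and 68.3 in skin nonmigrated and 305, 90.5 and 239 in skin migrated libraries. The skin groups overlapped, and the call was lost in 5 of 12 fits that left out 1 library.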

How the results depend on the processing

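Directions of the 105 called named genes held in every fit, and 75 kept their call with each library left out in turn. The other 30 lost it in 1 or more of these 12 fits. Losses not given above included Slpi (10 fits) and Apol7c, Prg2, Sfn and Tnfrsf18 (9 fits each). They also included Cxcl3 (5), H2-DMb2 (4), H2-Ob (3), Ccr1 and H2-Oa (2 each) and Jam2 and Ltf (1 each). With 1 library left out, the counts ranged from 371 to 1504 (more positive in the joint), 204 to 1106 (more negative) and 89 to 130 (immunoglobulin, more negative). Without skin nonmigrated replicate 3, 658 of the 665 and 363 of the 364 genes were among those called. Without both joint libraries numbered 2, counts were 171, 127 and 75, and 49 of the 105 named genes lost their call, Igkc among them (edgeR adjusted p 0.0523). At an adjusted p under 0.001 they were 11, 9 and 7. DESeq2's Wald test gave 1093 and 636 calls, all 18 libraries in 1 fit 1074 and 590, and protein-coding genes only 218 more negative calls, a class that holds none of the 118 immunoglobulin genes and 234 of the other 246. What else moved this count was not tested. Counts under the other normalizations, filters and thinning stayed within 1.5 times. Depth limits genes near the floor, for which only bounds are given.

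The replicate number as a replicate block within each site gave 496, 330 and 112 calls, and 13 named genes lost theirs. Nothing in the labels pairs the pools, and same-numbered deviations correlated at 0.0142 to 0.216 in the joint and 0.0861 to 0.199 in the skin over 13383 genes, with not every library closest to its own number, so the numbers were not taken as pairs.

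Signs changed only for genes that were not called. Col3a1 (0.2) was -0.01 and -0.04 with the replicate blocks, -1.28 without both joint libraries numbered 2 and -1.36 to 0.86 with 1 library left out. S100a8 (-0.16) was 0.05 without both joint libraries numbered 2 and -0.61 to 0.34 with 1 left out. S100a9 (-0.33) ranged from -0.77 to 0.15, Hba-a1 (1.91) from -0.01 to 3.25 and Arg1 (0.38) from -0.4 to 0.8. Ighe (-1.55) was 0.72 without both joint libraries numbered 2 and -4.06 to 0.5 with 1 left out. The causes were not tested.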
